A study of Mus musculus with 2 samples.

Results

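The 10 genes described here encode regulators of G protein signalling (RGS proteins), and their levels were compared across the 2 libraries of the series: Rgs2, Rgs3, Rgs4, Rgs5, Rgs7, Rgs10, Rgs12, Rgs14, Rgs16 and Rgs17. They were picked by symbol from the 17431 genes with a read in either library, with earlier results of these data known, so their values are a description. Both libraries came from BALB/c mouse dermis. The fibroblast library was made from cells of mice at postnatal day 3, grown in serum medium (DMEM, 10% fetal bovine serum). The library of skin-derived precursors (SKPs), multipotent dermal cells that grow in defined medium with growth factors, was made from cells of mice at postnatal day 4 in DMEM/F12 with 40 ng/ml FGF2, 20 ng/ml EGF and 2% B27 supplement. The labels name no genotype or other treatment for either culture. With 1 library per cell type there was no replicate, so each difference below is one between these libraries, and cell type, medium and age cannot be told apart.

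G protein-coupled receptors act by loading the alpha subunit of a heterotrimeric G protein with GTP. RGS proteins bind the active alpha subunit through their RGS domain and speed up GTP hydrolysis, which ends the signal. Most of them act on alpha subunits of the Gi class, the Gq class or both, and the families R4, R7, R12 and RZ differ in what surrounds the RGS domain. In blood vessels, RGS proteins limit responses to agonists such as angiotensin and endothelin.

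The fibroblast library held 23374716 reads, of which 81.65% were mapped, and the SKP library 22981183, of which 85.13% were mapped. After scaling, 1 read in a gene of 1 kb was worth 0.0543 RPKM in fibroblasts and 0.0528 in SKPs (reads per kilobase of gene, scaled to the reads counted on genes). All 8 fibroblast markers examined, among them Col1a1, Col3a1, Dcn and Vim, were at 1 RPKM or more in both libraries. Of 8 SKP markers, all were at 1 RPKM or more in the SKP library and 7 in the fibroblast library, where Sox2 stood at 0.818 RPKM. Mast cell markers summed to 0.834 RPKM in fibroblasts and 151 in SKPs, leukocyte markers to 5.66 and 30.1, keratinocyte markers to 2.56 and 31.3, and endothelial markers to 2.04 and 4.90. Of the 7 endothelial markers only Cdh5 reached 1 RPKM, with 0.787 in fibroblasts and 3.57 in SKPs. Pecam1 (5 fibroblast reads and 18 SKP reads) and Tek (10 and 37) went the same way at low levels. Kdr (55 and 34) and Vwf (75 and 34) went the other way, and Tie1 (1 and 1) and Emcn (1 and 2) were near 0. Neuron markers summed to 6.19 RPKM in fibroblasts and 5.57 in SKPs.

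SKPs held over 2 times the fibroblast level of Rgs2, Rgs5 and Rgs17, while Rgs4 was 13.1-fold higher in the fibroblast library. Rgs16 was 1.90-fold higher in SKPs, and Rgs3, Rgs10 and Rgs12 lay within 1.24-fold of equality. The Rgs3 reads lay on 147 bases of the gene in fibroblasts and 1086 in SKPs, so its ratio is uncertain. Rgs7 and Rgs14 were rare in both. A gene counted as expressed at RPKM 1 or more with 20 reads or more in either library, and as higher or lower when the libraries were at least 2-fold apart and the 95% exact counting interval of the ratio excluded equality. By this rule 8 of the 10 members were expressed, 3 were higher in SKPs, 1 was lower and 4 were neither. Among all 12053 expressed genes 12.1% were higher in SKPs and 6.41% were lower. Since the members were chosen on this contrast, nothing is read from their share. A member such as Rgs5 or Rgs17 passed the expression rule only through the library where it was high. The median log2 ratio was 0.62 over the 8 expressed members and -0.01 over all expressed genes. The choice of members and the expression rule bear on this median too, so nothing is read from it. Intervals in parentheses after a fold are the 95% counting intervals, which cover counting error only.

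**Figure D1:**
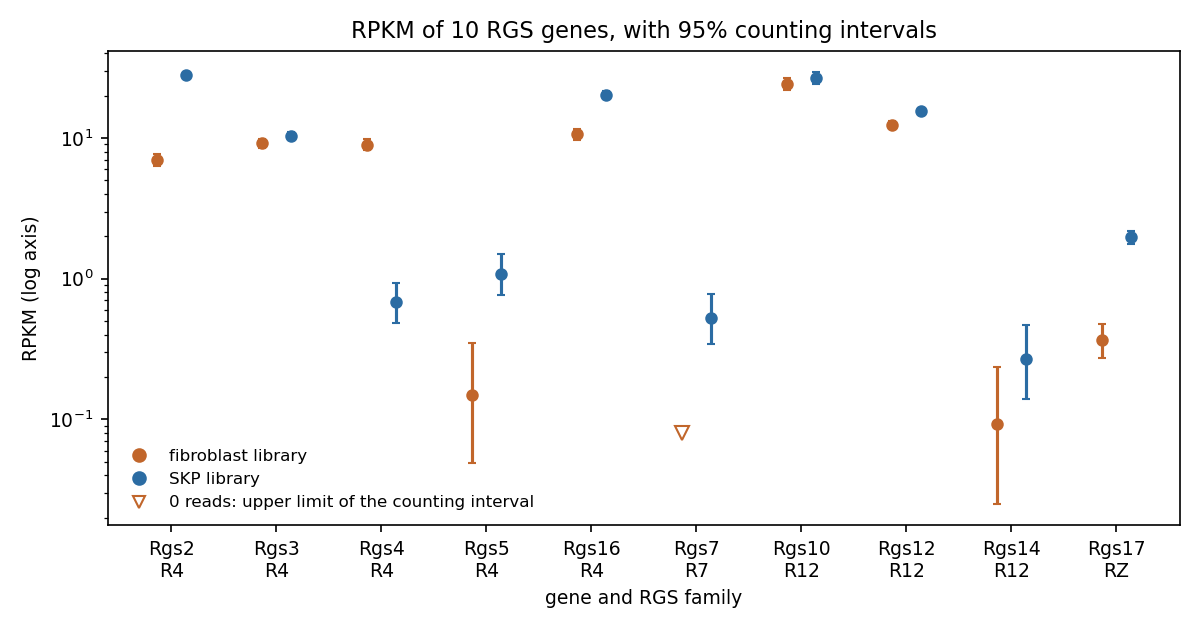
RPKM (log axis) of each RGS gene in the fibroblast (orange) and SKP (blue) library, 1 library each, with 95% counting intervals. Rgs4 is the only one of the 10 genes drawn with the fibroblast value on top, and Rgs7 had 0 fibroblast reads, for which the open triangle marks the upper limit of 0.0801 RPKM.

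The R4 family holds small proteins made of little more than the RGS domain. Rgs2 (gene ID 19735), which acts preferentially on Gq and is induced by many agonists, had 386 fibroblast reads and 1590 SKP reads. This was 6.97 RPKM in fibroblasts (6.29 to 7.70) and 27.9 in SKPs (26.5 to 29.3), a 4.00-fold difference (3.58 to 4.48). Rgs2 was thus at the top of the members in SKPs, level with Rgs10 within counting error, and the sixth in fibroblasts. Rgs16 (19734), which acts on Gi and Gq, stood at 10.6 RPKM with 460 fibroblast reads and at 20.2 RPKM with 902 SKP reads. Its ratio of 1.90 (1.70 to 2.14) was short of 2-fold, although the interval excluded equality.

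Rgs4 (19736) acts on Gi and Gq and is best known from brain and heart. It had 485 reads (8.93 RPKM) in the fibroblast library and 38 (0.679 RPKM) in the SKP library, so it was 13.1-fold higher in fibroblasts (9.44 to 18.8). Reads lay over 94.95% of the gene in fibroblasts and 38.4% in SKPs. Rgs5 (19737), a well-known marker of pericytes, went the other way at a low level. It had 5 fibroblast reads (0.150 RPKM) and 37 SKP reads (1.08 RPKM), a 7.19-fold difference (2.82 to 23.4). Rgs5 passed the expression rule by a small margin, and on the log2(RPKM + 1) scale its difference was 0.85, below the 2-fold line.

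Rgs5 can stand for pericytes, so their markers are set beside it. Pdgfrb was at 174 RPKM in fibroblasts and 207 in SKPs, Cspg4 at 13.8 and 25.5, Notch3 at 2.02 and 5.13, and Des at 12.04 and 31.0. Kcnj8, with 3 and 4 reads, and Abcc9, with 19 and 24, were near 0 in both. The contractile markers were higher in fibroblasts, the same library that held more Rgs4: Acta2 was 47.7-fold higher (45.2 to 50.3), Tagln 64.0-fold (56.8 to 72.3), Myh11 had 652 fibroblast reads and 5 SKP reads, and Cnn1 had 2785 and 1. Mcam was also lower in SKPs. The summed level of all 11 pericyte and smooth muscle markers was 2836 RPKM in fibroblasts and 323 in SKPs. Most of the fibroblast sum was Acta2 (1953 RPKM, against 41.0 in SKPs) and Tagln (585, against 9.15). The sum thus follows the contractile markers. It does not follow Pdgfrb, Cspg4, Notch3 and Des, which had the higher level in SKPs. In bulk RNA fewer cells of a type and less RNA per cell cannot be told apart, and the part of such cells in the Rgs4 and Rgs5 values was not tested.

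Rgs4, Rgs5 and Rgs16 share a feature that the choice of members did not use. Their proteins begin with methionine and cysteine, and oxidation of this cysteine is known to send them to the N-degron pathway of protein breakdown. The first 30 coding bases are shown for these 3 genes and for Rgs2, 5′ to 3′, with the start codon and the second codon in capitals.
Rgs4: ATGTGCaaaggacttgcaggtctgccggct
Rgs5: ATGTGTaagggactggcagctctgccgcac
Rgs16: ATGTGCcgcaccctagccaccttccccaac
Rgs2: ATGCAAagtgccatgttcctggctgtccag
The second codon, TGC or TGT, encodes cysteine in Rgs4, Rgs5 and Rgs16, and it does so in none of the other 17 RGS genes of the 4 families (longest coding sequence in GENCODE M21, build GRCm38). The coding sequences of Rgs4 and Rgs5 were 69.2% identical over 520 aligned bases, the closest pair among these 4 genes, and the other pairs were 62.7% to 66.1% identical. On the log2 scale the RPKM ratio, SKP to fibroblast, was -3.72 for Rgs4, 2.85 for Rgs5 and 0.93 for Rgs16. No exact run of 49 bases, the read length, was shared between transcripts of any of the 10 members. The mapping allowed up to 2 mismatches, so this does not show where reads with mismatches were placed. Genes of N-degron enzymes were expressed in both libraries, with 8 of 8 neither higher nor lower by the 2-fold rule. Most expressed genes were neither as well (12.1% were higher and 6.41% lower), so nothing is read from this count. Ate1, the arginyl transferase, stood at 11.8 RPKM in fibroblasts and 6.38 in SKPs (1.85-fold, 1.68 to 2.05). Ado, the cysteine dioxygenase, stood at 10.8 and 13.8 (1.27-fold, 1.17 to 1.39). The ubiquitin ligase gene Ubr4 stood at 19.2 and 32.5 (1.70-fold, 1.64 to 1.75). The intervals of Ate1, Ado and Ubr4 excluded equality.

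The 250 bases before the start of 4 of the 5 R4 members are given next, because Rgs2, Rgs5 and Rgs16 had the higher level in SKPs while Rgs4 had the opposite ratio. The sequences are from RefSeq (build GRCm38.p6), 5′ to 3′ on the strand of the gene, with capitals for the CCAAT box, the TATA box (TATAAA), the half-site of the cyclic AMP response element (TGACG, part of the full site TGACGTCA) and the GC box (GGGCGG), each searched on both strands and marked also where it lies in reverse.
Rgs2 (chr1:144004150-144004399, minus strand): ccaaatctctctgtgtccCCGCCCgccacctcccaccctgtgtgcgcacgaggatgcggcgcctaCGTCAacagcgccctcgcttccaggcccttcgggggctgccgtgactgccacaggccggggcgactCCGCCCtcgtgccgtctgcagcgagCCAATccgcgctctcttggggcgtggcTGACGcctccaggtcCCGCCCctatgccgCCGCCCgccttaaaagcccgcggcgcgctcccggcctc
Rgs16 (chr1:153740103-153740352, plus strand): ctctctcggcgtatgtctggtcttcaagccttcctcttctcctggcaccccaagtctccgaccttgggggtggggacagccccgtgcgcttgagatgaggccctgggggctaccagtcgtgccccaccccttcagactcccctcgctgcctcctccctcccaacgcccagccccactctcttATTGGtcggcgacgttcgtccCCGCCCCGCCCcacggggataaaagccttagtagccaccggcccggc
Rgs5 (chr1:169655251-169655500, plus strand): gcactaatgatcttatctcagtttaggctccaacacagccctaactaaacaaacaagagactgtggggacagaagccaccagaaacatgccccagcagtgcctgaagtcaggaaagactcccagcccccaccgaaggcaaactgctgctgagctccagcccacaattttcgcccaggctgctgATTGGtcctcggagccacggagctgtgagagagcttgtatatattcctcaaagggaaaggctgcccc
Rgs4 (chr1:169747643-169747892, minus strand): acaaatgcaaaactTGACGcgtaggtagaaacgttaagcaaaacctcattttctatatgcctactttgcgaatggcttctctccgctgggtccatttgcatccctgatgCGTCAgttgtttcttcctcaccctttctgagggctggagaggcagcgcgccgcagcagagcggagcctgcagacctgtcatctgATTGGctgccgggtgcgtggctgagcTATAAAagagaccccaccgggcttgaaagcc
All 4 sequences held a CCAAT box, from base -94 to -90 in Rgs2, -68 to -64 in Rgs16, -67 to -63 in Rgs5 and -57 to -53 in Rgs4, counted from the start of the gene. Of all 32851 RefSeq promoters of this length, 33.8% held one. Of the other 5 members with a RefSeq promoter (Rgs3, Rgs7, Rgs10, Rgs12 and Rgs17), none held a CCAAT box in these 250 bases. Rgs4 alone among the 4 had a TATA box, at -31 to -26, a motif found in 12.4% of promoters. The fifth R4 member, Rgs3, has 2 RefSeq promoters, and each held a TATA box, at -100 to -95 in one and -177 to -172 in the other. Rgs2 and Rgs4 each held 2 half-sites of the cyclic AMP response element, present in 17.8% of promoters, and none of the 4 held the full site, present in 1.55%. The GC box occurred 4 times in Rgs2 and 2 times in Rgs16, where both copies overlap by a base, and in 32.7% of promoters. These matches are a description of letters, not of bound sites.

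On chromosome 1 lie 5 of the 10 members. In RefSeq order of protein-coding genes, Rgs4 and Rgs5 are next to each other, and their ratios had opposite signs. Rgs16 lies beside Rgs8, which had 4 fibroblast reads and 13 SKP reads, and Rgs2 lies beside Rgs13 and Rgs1, with 0 fibroblast reads and 2 SKP reads each.

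Rgs3 (50780), the R4 member with long isoforms that carry further domains, had similar levels in both libraries, 9.15 RPKM in fibroblasts and 10.3 in SKPs, a ratio of 1.12 (1.02 to 1.23). The reads behind these levels were spread unlike those of the other members. In fibroblasts 792 reads covered 3.12% of the 4704 bases of the gene, which is 147 bases, or 5.40 reads per covered base. In SKPs 914 reads covered 23.1%, or 1086 bases. The SKP library thus covered 939 more bases, which takes at least 20 reads of 49 bases. Among 2911 genes within 2-fold of its reads and length in fibroblasts, 0 had a coverage as low, and their median was 93.5%. In SKPs 3 of 2974 such genes were as low, with a median of 94.3%. No position of a read is in the files used here, so which bases held the reads is not given. Of the 10823 different runs of 49 bases in the Rgs3 transcripts of GENCODE M21, 11.5% also occur in 1 other gene, Gm5763, and 0 of those lie in the longest Rgs3 transcript. The RPKM of Rgs3 in fibroblasts therefore rests on a short stretch of the gene, and the cause was not tested.

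**Figure D2:**
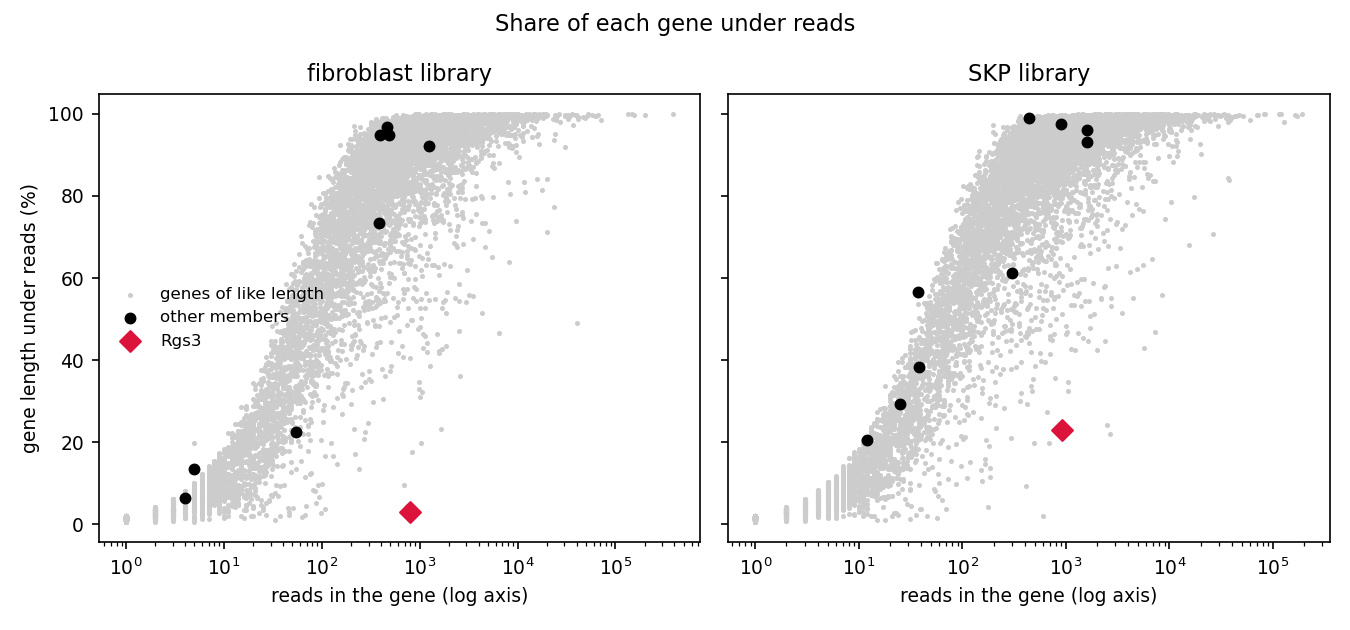
Share of the gene length under reads (percent) against the reads in the gene (log axis) in each library. Grey points are genes within 2-fold of the length of Rgs3, black points are the other members and the red diamond is Rgs3, which lies at 3.12% in fibroblasts and 23.1% in SKPs, against medians of 93.5% and 94.3% for genes of like reads and length.

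Coverage of the other members was near that of genes with like reads and length. Rgs16 was covered over 96.9% in fibroblasts and 97.6% in SKPs, and Rgs12 over 92.2% and 96.2%. Rgs2 was covered over 73.4% in fibroblasts, where the median of like genes was 90.5% and 10.6% of them were as low, and over 93.1% in SKPs. Rgs17 was covered over 22.5% in fibroblasts and 61.3% in SKPs, with medians of 33.3% and 78.7% for like genes. Rgs16 shares 8.38% of its 49-base runs with the antisense gene Gm28513, and Rgs12 shares 4.31% with the antisense gene Gm43791. Whether reads were counted by strand is not stated in these sources, so reads from these partners cannot be separated.

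The R12 family joins the small Rgs10 to the large scaffold proteins encoded by Rgs12 and Rgs14, which also bind inactive Gi subunits through a GoLoco motif. Rgs10 (67865), known from immune cells and brain, stood at 24.3 RPKM in fibroblasts (391 reads) and 26.7 in SKPs (442 reads), a ratio of 1.10 whose interval included equality (0.956 to 1.26). The interval limits the difference to 1.26-fold as far as counting error goes. Rgs12 (71729) had 1257 and 1603 reads, or 12.5 and 15.4 RPKM, a ratio of 1.24 (1.15 to 1.33). Rgs14 (51791) had 4 fibroblast reads and 12 SKP reads, or 0.0922 and 0.269 RPKM, and a difference was not detectable at this depth (2.91-fold, 0.883 to 12.4).

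The sum of leukocyte markers was higher in the SKP library, as given above. By the rule 4 of 4 expressed ones were higher, beside 12.1% of all expressed genes. Among them were Lyz2 (1.95 RPKM against 12.7), Cd68 (1.62 against 8.90) and Fcer1g (0.398 against 3.09). Fcer1g and Laptm5 passed the expression rule only through the SKP library. Below the rule, Itgam had 1 fibroblast read and 37 SKP reads, and Tyrobp 1 and 13. Csf1r (20 and 29), Coro1a (12 and 20) and Cd79a (5 and 6) had intervals that included equality. Ptprc, which defines leukocytes, had 2 fibroblast reads and 12 SKP reads, and Cd3e had 0 reads in both. Among RGS genes known from blood cells, Rgs10 stood at the levels given above, Rgs1 and Rgs13 had 2 SKP reads each, and Rgs18 had 1 fibroblast read and 8 SKP reads. Of 9 mast cell markers 7 were expressed and all 7 were called higher in SKPs, beside 12.1% of all expressed genes. All 7 passed the expression rule only through the SKP library, so nothing is read from this count. Tpsab1 stood at 0.593 RPKM against 68.1, while Cpa3 and Mcpt4 had 0 fibroblast reads. Fcer1a, with 0 fibroblast reads and 2 SKP reads, and Ms4a2, with 2 and 1, were near 0 in both. The part of these cells in the RGS values was not tested.

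Rgs7 (24012) belongs to the R7 family, whose proteins are found mainly in neurons and are stable only when bound to the beta subunit encoded by Gnb5. It had 0 fibroblast reads, where a floor of 3 reads is 0.0651 RPKM, and 25 SKP reads (0.527 RPKM). Rgs7 was thus 8.09-fold higher in SKPs when the floor of 3 reads stood in for 0, at a level below the expression rule. The exact interval of the ratio had a lower limit of 6.11-fold and no upper limit. In the authors' deposited table, which puts 0.01 RPKM in place of 0, the log2 ratio of fibroblasts over SKPs was -5.72 for Rgs7. The partners of the family were present in both libraries, Gnb5 at 9.57 RPKM in fibroblasts and 7.57 in SKPs and the membrane anchor gene Rgs7bp at 3.51 and 2.18. Of the other R7 genes, Rgs11 was the one expressed, with 60 fibroblast reads (1.63 RPKM) and 7 SKP reads (0.184 RPKM), and was 8.82-fold higher in fibroblasts (4.03 to 22.9). Rgs9 had 16 and 27 reads and Rgs6 had 2 and 2. Rgs7 and Rgs11 thus had opposite ratios within 1 family. Of the neuron markers, Nefl had 1 fibroblast read and 147 SKP reads, while Tubb3 had 184 and 22.

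Rgs17 (56533) is of the RZ family, which acts on Gz and other Gi-class subunits and carries a string of cysteines that anchors it to membranes. It had 55 fibroblast reads (0.365 RPKM) and 305 SKP reads (1.97 RPKM), a 5.39-fold difference (4.03 to 7.32). Its relative Rgs19 was the most abundant gene of the R4, R7, R12 and RZ families in both libraries. It stood at 47.0 RPKM in fibroblasts and 33.0 in SKPs, 1.43-fold higher in fibroblasts (1.31 to 1.55). Rgs20 had 9 fibroblast reads and 11 SKP reads.

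**Figure D3:**
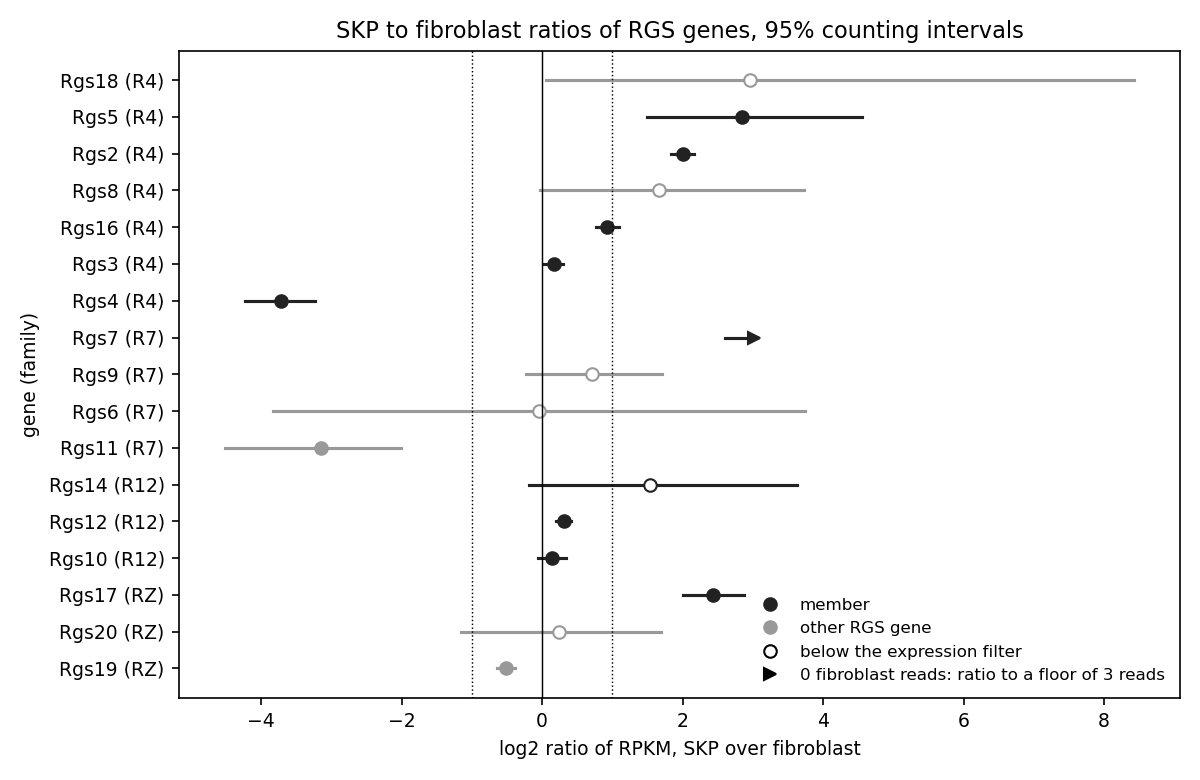
Log2 ratio of RPKM, SKP over fibroblast, with 95% counting intervals, for the 10 members (black) and the other RGS genes for which a ratio could be given (grey), grouped by family. Dotted lines mark 2-fold. Of the expressed genes, Rgs4 and Rgs11 lie past 2-fold on the fibroblast side and Rgs2, Rgs5 and Rgs17 on the SKP side. Rgs14, Rgs8 and Rgs18, below the expression filter, also lie past 2-fold on the SKP side, and Rgs7 (arrow), also below the filter, is set against a floor of 3 reads.

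The order of the members by RPKM differed between the libraries. In fibroblasts it ran Rgs10, Rgs12, Rgs16, Rgs3, Rgs4, Rgs2, Rgs17, Rgs5, Rgs14 and Rgs7. Each step down to Rgs17 exceeded counting error except that from Rgs3 to Rgs4 (1.02-fold, 0.914 to 1.15). The steps from Rgs17 to Rgs5 and from Rgs5 to Rgs14 did not exceed it. The largest step was from Rgs2 to Rgs17, 19.1-fold (14.4 to 25.8). Such intervals do not cover error in the gene length used for scaling. Nor do they cover the low coverage of Rgs3, whose fibroblast reads lay on 147 bases, so its rank is uncertain. In SKPs the order was Rgs2, Rgs10, Rgs16, Rgs12, Rgs3, Rgs17, Rgs5, Rgs4, Rgs7 and Rgs14. Rgs2 and Rgs10 could not be ranked there (1.05-fold, 0.941 to 1.16), and neither could the neighbours from Rgs5 downward. Rgs2 lay above 56.0% of genes with a read in fibroblasts and above 83.9% in SKPs, whereas Rgs4 lay above 61.0% and 26.6%.

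Summed over the 20 genes of the 4 families, of which 19 had a read, RGS RNA came to 122 RPKM in fibroblasts and 139 in SKPs. That is a ratio of 1.14. The R4 family summed to 35.9 RPKM (29.4% of the sum) in fibroblasts and 60.6 RPKM (43.6%) in SKPs, the RZ family to 47.6 (39.0%) and 35.2 (25.3%), the R12 family to 36.8 (30.2%) and 42.4 (30.4%), and the R7 family to 1.78 (1.46%) and 0.938 (0.674%). Rgs2 alone made up 5.71% of RGS RNA in fibroblasts and 20.04% in SKPs, and Rgs4 7.31% and 0.488%.

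**Figure D4:**
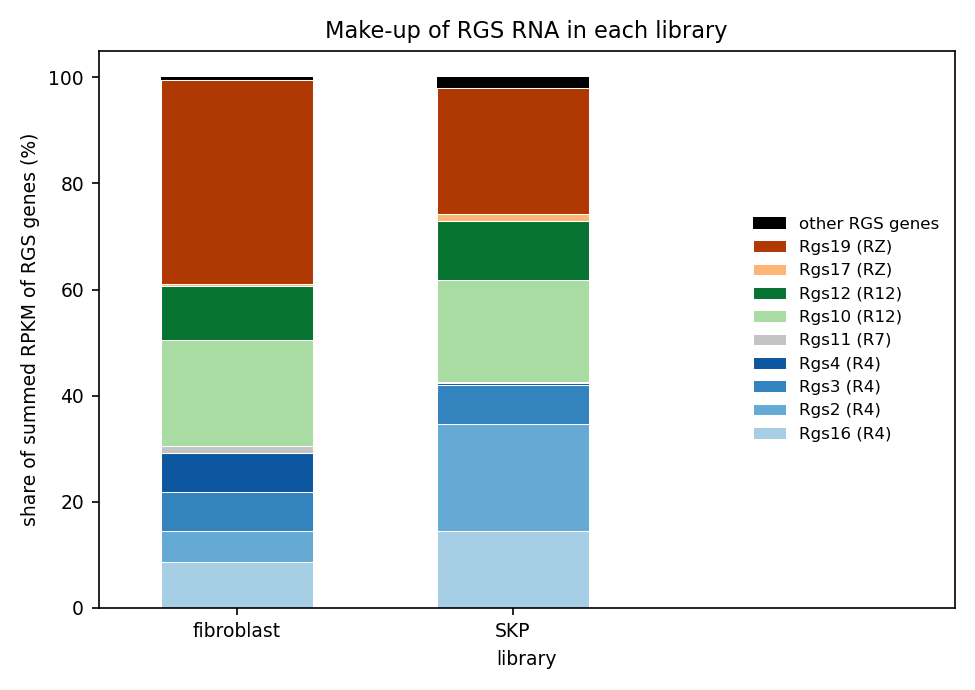
Share (percent) of the summed RPKM of the RGS genes taken by each gene in each library, coloured by family (blue R4, grey R7, green R12, orange RZ). Genes under 1% in both libraries are pooled in black. Rgs2 takes 5.71% in fibroblasts and 20.04% in SKPs, Rgs19 takes 38.5% and 23.7%.

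The alpha subunits, on which RGS proteins act, were within 2-fold in every expressed case. Most expressed genes were neither higher nor lower as well (12.1% were higher in SKPs and 6.41% lower). Nothing is therefore read from this or from the other counts in this paragraph. Of 4 expressed Gi-class alpha subunit genes, 0 were 2-fold apart, with Gnai2 at 427 RPKM in fibroblasts and 316 in SKPs, Gnai3 at 41.6 and 42.7 and Gnai1 at 8.66 and 4.97. The Gq-class genes Gnaq (21.4 and 17.8 RPKM) and Gna11 (50.02 and 51.1) and the genes Gnas, Gna12 and Gna13 were also under 2-fold apart. Among 11 expressed beta and gamma subunit genes 2 were higher in SKPs, Gng11 at 41.9 against 155 RPKM (3.71-fold, 3.40 to 4.05) and Gng2 at 9.40 against 30.4 (3.24-fold, 2.97 to 3.54), and 0 were lower. The other regulators of G protein cycling, among them Gpsm2 and Ric8, gave 0 of 6 past 2-fold. Among 9 other expressed genes with an RGS domain the Wnt feedback gene Axin2 was higher in SKPs (1.05 against 2.26 RPKM), and the RhoGEF genes Arhgef1, Arhgef11 and Arhgef12 were within 2-fold.

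Receptors switch the G protein on, and phospholipase C beta and adenylyl cyclase carry its signal onward. Of 35 Gi- and Gq-coupled receptor genes 34 had a read and 22 were expressed, of which 10 had the higher level in SKPs and 2 in fibroblasts by the calling rule. The median log2 ratio of the 22 was 0.37. The endothelin receptor gene Ednra stood at 13.6 RPKM in fibroblasts and 140.4 in SKPs (10.3-fold, 9.66 to 11.1). The other endothelin receptor gene, Ednrb, had the opposite ratio, 8.27 RPKM in fibroblasts and 3.41 in SKPs (2.42-fold, 2.09 to 2.81). Chrm3, a muscarinic receptor gene, had 2 and 715 reads, and the purinergic receptor gene P2ry1 had 4 and 106. The adrenergic receptor gene Adra1d was 51.1-fold higher in fibroblasts (21.6 to 159), and F2r, the thrombin receptor gene, was abundant in both at 203 and 189 RPKM. Of 10 expressed genes for phospholipase C beta and adenylyl cyclase 4 were higher in SKPs and 1 was lower. Adcy5 was 5.05-fold (4.07 to 6.31) and Adcy2 3.32-fold higher in SKPs, Adcy8 had 1 fibroblast read and 126 SKP reads, and Plcb4 was 4.45-fold higher in fibroblasts (3.29 to 6.12). Among 6 expressed receptor kinase and arrestin genes, which switch receptors off, Grk5 was 2.54-fold higher in fibroblasts (2.16 to 3.01), while Arrb1 stood at 1.47 RPKM in fibroblasts and 2.86 in SKPs. Over all these lists and the RGS genes that are no members, 85 genes were expressed, 17 were higher in SKPs and 5 were lower, beside 12.1% and 6.41% of all expressed genes. The lists were chosen with results of this contrast known, so nothing is read from these shares or from the receptor counts.

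**Figure D5:**
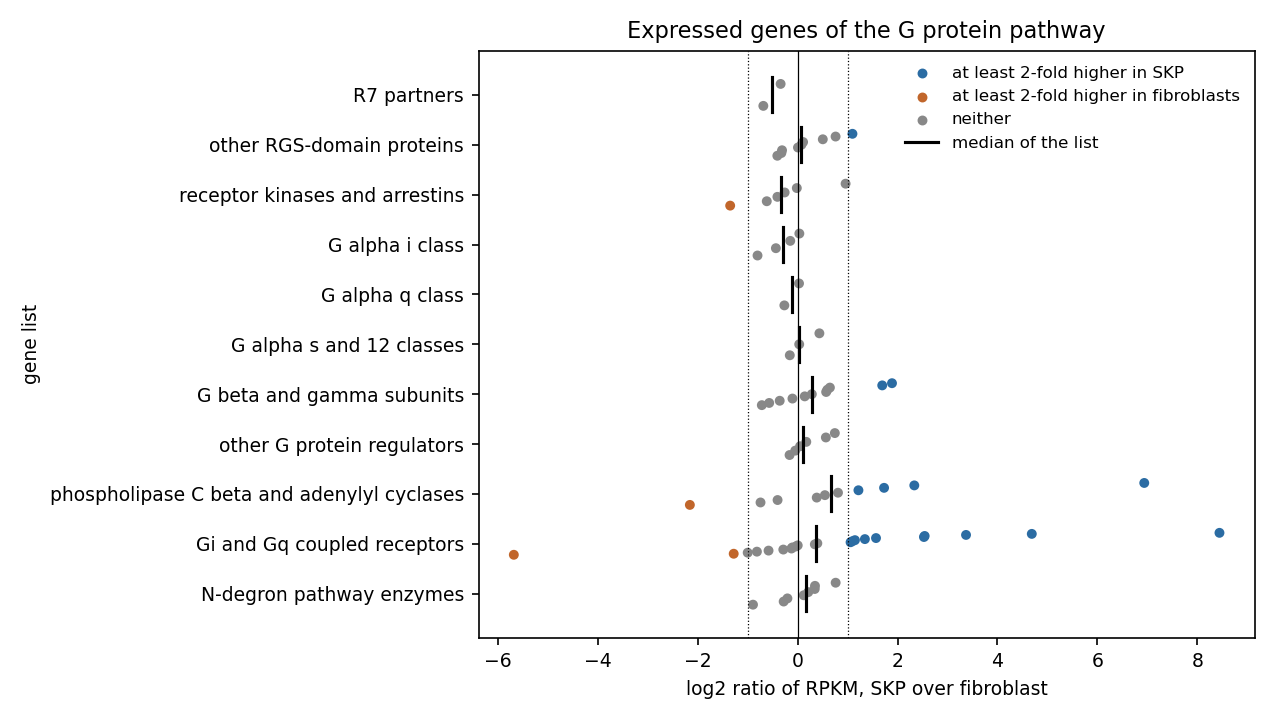
Log2 ratio of RPKM, SKP over fibroblast, of each expressed gene in the lists of the G protein pathway, 1 point per gene, with the median of each list as a black bar and dotted lines at 2-fold. The alpha subunit genes lie between the dotted lines, and 12 of the 22 receptor genes lie outside them. The lists were chosen with results of this contrast known, so nothing is read from these counts.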

How the data were processed

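RNA of 1 fibroblast and 1 SKP culture, enriched with oligo(dT) beads per the labels' protocols, was sequenced. The labelled cell type set the group of each library. Each deposited table gives an unscaled count of reads for every gene, per the file headers. The deposited RPKM values are these reads scaled by gene length and by the counted reads. A further deposited column gives coverage, the percent of gene length under reads, per the file headers. The authors' comparison table holds a log2 ratio of fibroblast over SKP RPKM, and their filtered table keeps the rows with an absolute ratio of at least 1 and an FDR up to 0.001. The class names of the deposited mapping tables allow up to 2 mismatches. The submitters' processing notes name build mm9. No source used here gives the aligner, counter or annotation. Multi-position matches were 19.69% and 21.69% of reads, per the deposited mapping tables.

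For each gene the RPKM ratio, SKP to fibroblast, was taken on the log2 scale, and it and its 95% exact (Clopper-Pearson) counting interval were computed in Python 3.11.15 with scipy 1.17.1, pandas 2.3.3 and numpy 2.4.6, and figures with matplotlib 3.10.9. Interval and calling code was tested on simulated data that held counting error alone, as the intervals assume. Such data check the code and say nothing of variation between cultures. Levels have exact Poisson intervals. Since reads copied by PCR are not separate molecules, these intervals and the floor of 3 reads hold for counting error alone. Scaling by trimmed mean of M values (TMM) used edgeR 4.0.16 in R 4.3.3. Coding sequences were aligned with Biopython 1.88, and shared runs of 49 bases were sought on both strands in GENCODE M21 transcripts. Only exact runs were sought, while the mapping allowed up to 2 mismatches. RefSeq promoters were found for 9 of 10 members, by gene ID. Without replicates no test was possible and leave-one-out was not run. The members, lists and filters were chosen with earlier results of these data known. The 23 lists hold 204 symbols, of which 199 had a read. All members and every other gene of the R4, R7, R12 and RZ families with a read are named, and from each other list names were taken among the 4 expressed genes most apart and the 2 most abundant ones. Des, Kcnj8, Abcc9, Pdgfrb, Cspg4, Notch3, Mcam, Ednrb, Cpa3, Mcpt4, Ptprc and Cd3e were named after their values were seen. So were Fcer1a, Ms4a2, Tyrobp, Coro1a, Csf1r, Itgam, Cd79a, Pecam1, Tek, Kdr, Vwf, Tie1 and Emcn.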

Additional observations from a re-analysis of the deposited data

How the results depend on the processing

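No paired analysis was possible because each cell type has 1 library. TMM scaling moved every log2 ratio by 0.02 and centring on the median of expressed genes by less, and neither changed a call among the members. On the log2(RPKM + 1) scale the ratios of Rgs4 (-2.56), Rgs5 (0.85), Rgs7 (0.61) and Rgs17 (1.12) were smaller in size, and 2 members were higher (Rgs5 was lost). Of all 12053 expressed genes 1098 were then higher in SKPs against 1455, and 508 were lower against 772. The authors' deposited table gives the same ratio for each member except Rgs7 (5.72 with the sign turned), and the filtered table keeps 4 members higher in SKPs, Rgs7 being the added one, and 1 lower. With no filter 4 members were higher, and 2197 of all 17431 genes against 1455 of the 12053 expressed ones. With genes at RPKM 5 or more 1 member, Rgs2, was higher and 1 lower of 6, 11 and 3 pathway genes of 65, and 828 and 478 of 8968 genes. At 1.5-fold, 4 members were higher, Rgs16 being added, 13 pathway genes were lower, and 2255 of all expressed genes were higher and 1716 lower. At 4-fold, 7 pathway genes were higher and 3 lower, and 705 and 241 of all expressed genes. Leaving out Rgs3, chosen after its coverage was seen, moved the SKP to fibroblast ratio of summed RPKM from 1.69 to 1.88 for the R4 family and from 1.44 to 1.48 for the members. At this depth a gene of 1 kb with 3 reads stands near the floor, so Rgs14, Rgs7 and the fibroblast level of Rgs5 are the least precise values.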
